A study of Homo sapiens with 6 samples.

Results

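The organic ion, nucleoside and drug carriers of the solute carrier (SLC) superfamily were compared between C4-2B parental cells and C4-2B enzalutamide resistant cells, in 3 RNA-Seq libraries each. C4-2B (C42-B in the sample labels) is a human prostate cancer line that descends from LNCaP through a passage in castrated mice, and enzalutamide is an antiandrogen that blocks the androgen receptor. Resistance was selected by passage in rising enzalutamide from 1 to 20 µM over a minimum of 6 months, and the surviving cells were pooled and kept in 5 µM enzalutamide. Parental cells were carried along in the vehicle DMSO, given as 1% in the series text. The study's methods state a maximum for the vehicle that lies below this value. The extraction text names 10 µM enzalutamide beside both kinds of cells and does not settle whether the parental cells were exposed at harvest. The model is a single resistant population of a single line, and nothing in the labels says that the 3 libraries of a group came from separate cultures. The p values then measure only the spread between these libraries, which may be technical.

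The carriers were taken by symbol: all SLC10, SLC15, SLC19, SLC22, SLC23, SLC28, SLC29 and SLC47 genes and all genes named SLCO, which gave 62 of the 58024 genes in the table. The SLC22 and SLCO families, the latter known as organic anion transporting polypeptides (OATPs), carry organic cations, carnitine, bile acids, hormones and many drugs into cells, mostly in liver, kidney and gut. The SLC47 carriers (multidrug and toxin extrusion, MATE) send organic cations out again in exchange for protons, and the SLC15 carriers take up small peptides with protons. SLC28 and SLC29 move nucleosides, SLC19 folate and thiamine, SLC23 ascorbate, and SLC10 bile acids and steroid sulfates. Some OATPs and SLC10A6 are known to carry steroid conjugates, which prostate cells can turn into androgens.

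Levels are given as FPKM, a density of sequenced fragments corrected for transcript length and library size, which allows levels to be set side by side between genes. The table holds no read counts. From the smallest values of genes with a single transcript, with fragments assumed to be 200 bases, the depth was estimated at 13500000 to 20400000 reads in the parental and 14100000 to 17800000 reads in the resistant libraries, at which 1 read on a transcript of 2000 bases is worth 0.0272 to 0.0412 FPKM. Of the 10 luminal prostate markers looked up, each reached 1 FPKM in at least 1 library, with a summed level of 4227 to 5004 FPKM in parental and 1234 to 1320 FPKM in resistant libraries. Basal markers summed to 14.1 to 23.9 and 23.4 to 30.3 FPKM, fibroblast markers to 8.04 to 10.9 and 8.34 to 14.95 FPKM, and endothelial markers to 0.568 to 1.14 and 0.0946 to 0.420 FPKM, with KDR at 0 throughout. Within the basal list, DST (means of 16.6 and 25.7 FPKM, not past the threshold) made up most of the sums. KRT15 (0.102 and 1.72 FPKM) was called higher and KRT14 (0.669 and 0 FPKM) lower, while KRT5 and TP63 stayed below 1 FPKM. Within the fibroblast list, DCN (listed at 0 in parental cells, mean 3.92 FPKM in resistant cells) and LUM (0.0604 and 0.969 FPKM) were called higher and PDGFRB (2.10 and 0.164 FPKM) was called lower. KRT14, DCN and LUM each had a group mean below 0.1 FPKM, so the filter described below set the direction of their calls beforehand. The 5 leukocyte markers were all below 1 FPKM in every library, and CD3E was at 0. Markers of liver and kidney epithelium, the tissues in which many of these carriers are known, summed to 0.709 to 2.45 FPKM in parental and 57.0 to 63.1 FPKM in resistant libraries. ALB and LRP2 made up nearly all of the latter. The 4 other markers did not show this: APOA1 had means of 1.04 and 0.321 FPKM and CUBN of 0.274 and 0.423 FPKM, neither past the threshold, FGB was listed at 0 in all libraries and UMOD stayed below 1 FPKM. The part of this difference in the carrier results was not tested.

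Of the 62 carriers, 10 were listed at 0 in all 6 libraries and 14 more stayed below a mean of 0.1 FPKM, with no single value above 0.311 FPKM. The 38 others were tested. The resistant cells had 10 carriers past the threshold as higher and 15 as lower (limma on log2 values with Benjamini-Hochberg adjustment over all 24468 genes tested, two-sided, adjusted p below 0.05). Over all genes tested, 22.1% were called higher and 22.3% lower, together 44.4%, and among protein-coding genes 55.7% were called in either direction. The carriers' 65.8% is to be read against these shares. Of the called carriers, 19 differed by 2-fold or more, 7 higher and 12 lower, where 28.5% of all genes tested met both conditions. The share of protein-coding genes, which were called more often than all genes, was not worked out at 2-fold. Of the 26 carriers with a mean of at least 1 FPKM in either group, 18 were called, beside 53.5% of all genes at that level. The 3 resistant values lay all above the parental values in 13 tested carriers and all below in 16, where 54.8% of all genes tested were without overlap. A mean below 0.1 FPKM in either group was found for 8 of the tested carriers, which passed the filter through the other group alone. Of these, 7 were called: SLCO1A2, SLCO1B1, SLCO2B1 and SLC22A16 higher, and SLC22A10, SLC22A13 and SLC22A14 lower. The filter set the direction of these calls beforehand, so their p values are descriptive and give no separate support. Among the 18 carriers at 1 FPKM or more in both groups, 4 were higher, 7 were lower and 7 were not past the threshold. The median log2 fold change over the tested carriers was −0.08, beside −0.05 over all genes tested. At 3 against 3 libraries, an exact two-sided permutation test of a single gene cannot go below p = 0.1. In these bulk libraries, fewer cells with a transcript and less transcript per cell cannot be told apart.

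**Figure D1:**
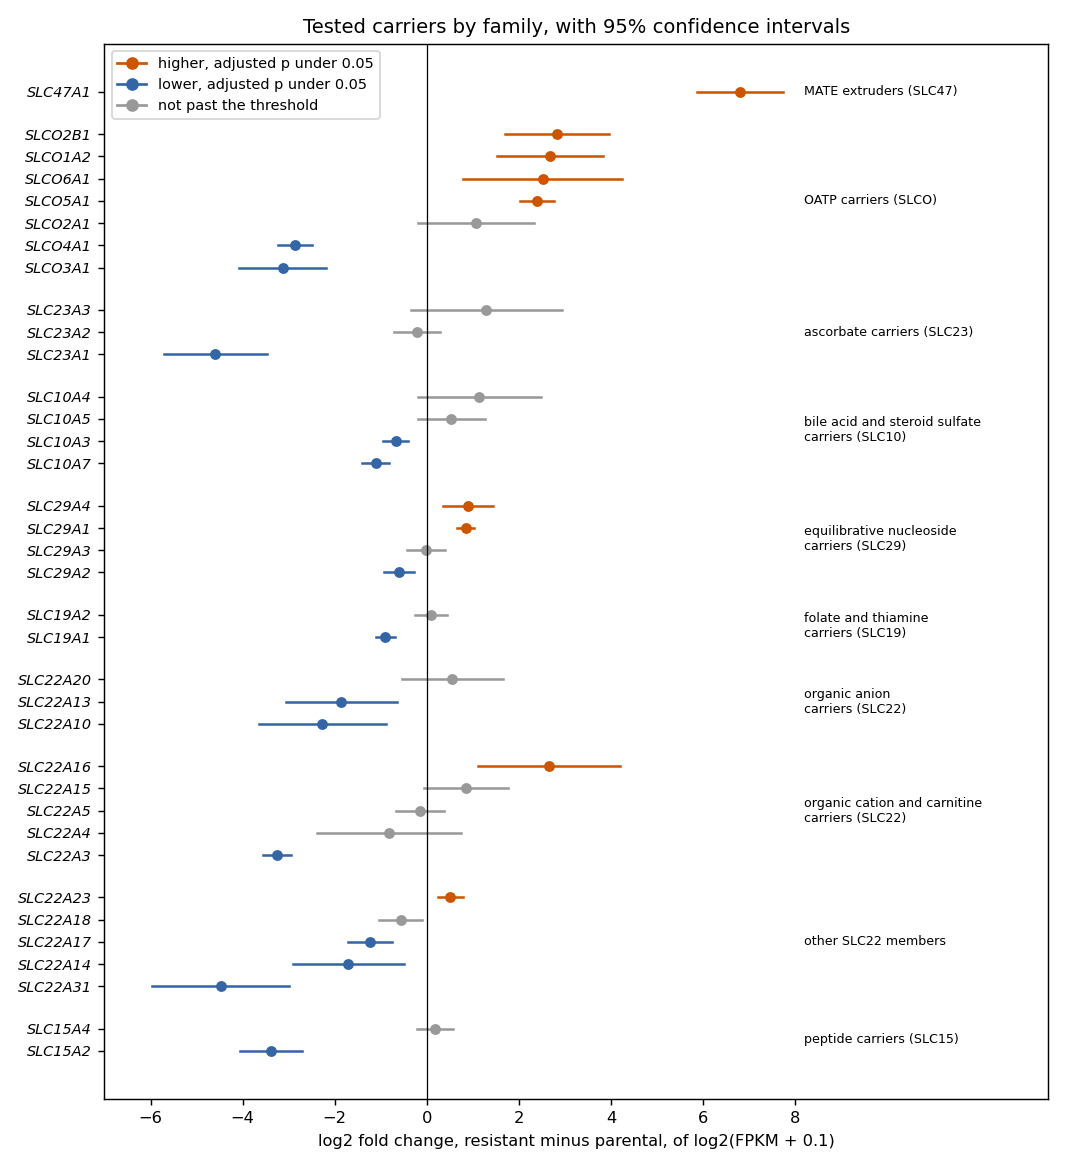
Log2 fold change of log2(FPKM + 0.1), resistant minus parental, for the tested carriers by family, with bars for the 95% confidence interval of the limma fit before adjustment for the number of genes. Orange points are the carriers called higher and blue points those called lower. SLC47A1 stands at 6.81 and SLC23A1 at −4.59, and SLCO, SLC22 and SLC29 genes lie on both sides of 0. SLCO1B1 is left out because it was listed at 0 in all parental libraries.

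The order of the levels changed between the cells. In parental cells the highest mean levels were those of the folate carrier SLC19A1 (38.8 FPKM), SLC10A7 (32.8 FPKM), both main equilibrative nucleoside carriers, SLC29A1 and SLC29A2 (30.9 FPKM each), and SLCO4A1 (29.6 FPKM), of which the last 4 had overlapping libraries. In resistant cells SLC29A1 came first (55.7 FPKM), followed by SLC47A1 (36.6 FPKM), SLC22A23 (21.2 FPKM), SLC19A1 (20.7 FPKM) and SLC29A2 (20.3 FPKM). The last 3 of these differed by less than the spread between their libraries. The carriers' values summed to 308 to 337 FPKM in the parental and 256 to 281 FPKM in the resistant libraries. The short RNAs RMRP and RPPH1 together held 18.4 to 21.5% of all FPKM in parental and 22.1 to 24.1% in resistant libraries. The part of this in the carriers' sums was not tested.

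The reference promoters of 5 called carriers are shown because they differ in composition, 3 of carriers that rose and 2 of carriers that fell. Each is the 200 bases before the RefSeq transcript start in GRCh38.p14, 5′ to 3′ on the gene's strand, from a table that matched 40 of the 62 carriers. Capitals mark 3 short motifs searched on both strands, which may overlap: the GC box GGGCGG, the androgen receptor half-site AGAACA and the TATA box TATAAA.
SLCO1A2, rose, chr12:21403652-21403851, minus strand: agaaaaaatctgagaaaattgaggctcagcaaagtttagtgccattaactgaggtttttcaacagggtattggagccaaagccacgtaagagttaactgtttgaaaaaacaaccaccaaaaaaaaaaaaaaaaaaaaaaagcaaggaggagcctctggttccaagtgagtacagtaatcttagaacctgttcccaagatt
SLCO1B1, rose, chr12:21130994-21131193, plus strand: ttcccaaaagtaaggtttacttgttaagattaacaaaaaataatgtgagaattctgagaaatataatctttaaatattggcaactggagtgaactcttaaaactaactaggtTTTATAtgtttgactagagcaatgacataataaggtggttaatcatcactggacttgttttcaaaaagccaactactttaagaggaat
SLC29A1, rose, chr6:44219415-44219614, plus strand: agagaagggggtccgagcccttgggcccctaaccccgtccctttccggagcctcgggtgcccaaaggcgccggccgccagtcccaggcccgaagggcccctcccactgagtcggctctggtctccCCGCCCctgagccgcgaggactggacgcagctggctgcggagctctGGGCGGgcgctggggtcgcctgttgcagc
SLC23A1, fell, chr5:139383298-139383497, minus strand: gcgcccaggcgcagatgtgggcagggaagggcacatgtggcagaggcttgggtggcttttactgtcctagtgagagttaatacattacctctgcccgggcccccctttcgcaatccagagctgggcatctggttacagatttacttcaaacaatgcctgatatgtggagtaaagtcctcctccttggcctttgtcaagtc
SLC15A2, fell, chr3:121894201-121894400, plus strand: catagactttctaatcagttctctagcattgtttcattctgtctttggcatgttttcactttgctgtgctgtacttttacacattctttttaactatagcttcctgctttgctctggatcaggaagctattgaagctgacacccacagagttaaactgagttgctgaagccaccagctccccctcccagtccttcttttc

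The GC content of these windows ran from 29.5% in SLCO1B1 and 36.5% in SLCO1A2 to 73.5% in SLC29A1, and the CpG count from 0 in SLCO1B1 and SLC15A2 to 17 in SLC29A1. Capitals appear in SLCO1B1 and SLC29A1 alone among the 5 windows shown. Over the 40 carriers matched, the androgen receptor half-site was found in SLC19A1 and SLC22A10, both lower in resistant cells, 2 of 40 windows where 9.82% of all promoters hold it. GC boxes were found in 16 of the 40 windows and 39.9% of all promoters, and TATA boxes in 5 and 8.92%. Such matches describe letters in a window and were not tested as sites.

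SLC47A1 (MATE1), the proton-coupled extruder that passes metformin and other organic cations out of liver and kidney cells, had the largest increase of the carriers. It lies on chromosome 17 (GRCh38, 19495385 to 19579034). Its level was 0.0968, 0.222 and 0.432 FPKM in parental cells against 29.8, 44.7 and 35.4 FPKM in the resistant libraries. The groups lay far apart, and the mean level of the resistant cells was 146-fold that of the parental cells, whose values amount to a few reads. The log2 fold change was 6.81 (standard error 0.39, limma adjusted p = 5.07e-05), and 4.90 with a pseudocount of 1 FPKM in place of 0.1. An antisense transcript within the gene, RP11-1113L8.1, had a mean of 1.77 FPKM in resistant cells and no value above 0 in parental cells, and the small nucleolar RNA SNORA59B inside it had 0.206 FPKM and 0. Its relative SLC47A2 (MATE2), known from the kidney, lies nearby on the same chromosome in the opposite orientation (19678288 to 19718979) and stayed below the filter, with 0.0920 FPKM in a single parental and 0.167 FPKM in a single resistant library.

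**Figure D2:**
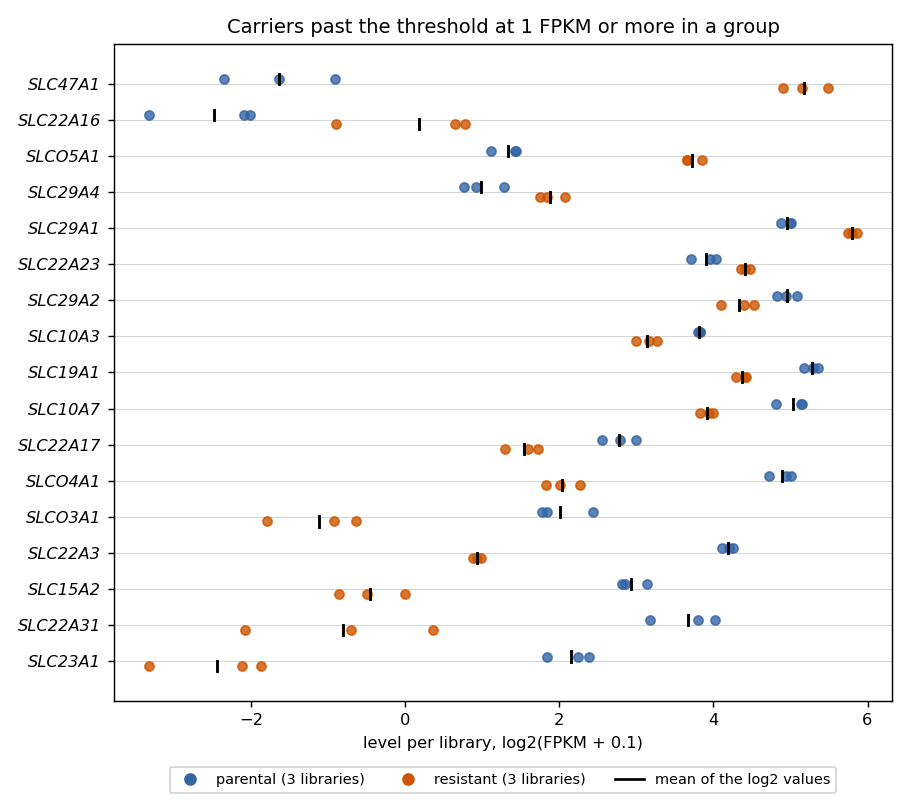
Level in each library, as log2(FPKM + 0.1), of 17 carriers that passed the threshold with 1 FPKM or more on average in a group. Blue points are the 3 parental and orange points the 3 resistant libraries, and black bars mark the mean of the log2 values. No carrier shown has overlapping groups, and the gap is widest in SLC47A1.

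Among the 12 OATPs, 5 rose, 2 fell, 1 was tested without passing the threshold and 4 were not tested. This count and those of the families below stand beside the 44.4% of all genes and 55.7% of protein-coding genes called in either direction. SLCO4A1, an OATP of broad tissue range that carries thyroid hormones and prostaglandins, was the most abundant of them in parental cells. It had 31.9, 26.3 and 30.7 FPKM in parental and 3.91, 4.72 and 3.46 FPKM in resistant libraries, a 7.35-fold lower mean without overlap (log2 fold change −2.85, standard error 0.15, limma adjusted p = 4.17e-05). The gene is on chromosome 20 (62642503 to 62685785). Of 4 antisense transcripts within it, RP11-93B14.9 (means of 1.34 and 0.766 FPKM) and RP11-93B14.10 (0.921 and 0.272 FPKM) were tested and did not pass the threshold. RP11-93B14.6 (0.155 and 0.0297 FPKM) and SLCO4A1-AS1 (0 and 0.0164 FPKM) were below the filter. SLCO3A1, a prostaglandin and thyroid hormone carrier on chromosome 15, went from 3.32, 5.30 and 3.48 FPKM to 0.427, 0.189 and 0.543 FPKM (log2 fold change −3.13, standard error 0.39, limma adjusted p = 0.00110).

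SLCO5A1 on chromosome 8, an OATP whose substrates are little known, took the place of SLCO4A1 as the most abundant OATP of the resistant cells. It rose from 2.07, 2.63 and 2.59 FPKM to 12.5, 14.4 and 12.6 FPKM, a 5.42-fold higher mean (log2 fold change 2.40, standard error 0.16, limma adjusted p = 8.09e-05). The antisense transcript RP11-159H10.3 inside SLCO5A1 rose with it, from a mean of 0.479 to 3.93 FPKM (log2 fold change 2.81, limma adjusted p = 1.98e-04). The kit is named as stranded, but whether strand was used when the values were made is not stated, so that reads of such a pair cannot be told apart.

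The other OATPs that rose did so from near 0 to means below 1 FPKM. Of them, SLCO2B1, SLCO1A2 and SLCO1B1 passed the filter through the resistant libraries alone, which set the direction of their calls. SLCO2B1, a carrier of estrone sulfate and DHEA sulfate, was at 0, 0.0443 and 0.0472 FPKM in parental and at 1.20, 0.491 and 0.899 FPKM in resistant libraries (limma adjusted p = 0.00346). SLCO1A2, which takes up bile acids and many drugs, was at 0, 0.0629 and 0 FPKM and then at 0.748, 0.405 and 0.903 FPKM (limma adjusted p = 0.00472). The groups overlapped for neither gene. An antisense transcript of SLCO2B1, CTD-2562J17.4, had a mean of 0.893 FPKM in resistant cells and was listed at 0 in parental cells (limma adjusted p = 0.117). SLCO1B1, the hepatocyte carrier of statins and bilirubin conjugates, had 0.146, 0.342 and 0.309 FPKM in resistant cells and was listed at 0 in every parental library, which gives no fold change (limma adjusted p = 0.0188). After quantile normalization its call was lost, with a limma adjusted p of 0.0681. SLCO6A1, known mainly from testis, was at 0, 0 and 0.311 FPKM and then at 0.751, 0.492 and 1.43 FPKM (limma adjusted p = 0.0291). That call was lost without any single library other than parental replicate 2, with limma adjusted p values up to 0.0996, and without that library the log2 fold change was 3.20 in place of 2.52.

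SLCO2A1, the prostaglandin carrier, had 0.366, 0.367 and 0.143 FPKM in parental and 0.347, 0.814 and 1.09 FPKM in resistant libraries. These groups overlapped, and its log2 difference of 1.07 had a 95% interval from −0.19 to 2.33. SLCO1B3, known from liver and from some tumours, was listed at 0 throughout, and SLCO1B7, SLCO1C1 and SLCO4C1 were below the filter.

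Among the 7 carriers of organic cations and carnitine in the SLC22 family, 1 rose, 2 fell, 3 were not past the threshold and 1 was not tested. SLC22A3 (OCT3), which takes up monoamines, metformin and other cations, had 17.1, 18.95 and 18.3 FPKM in parental and 1.82, 1.75 and 1.89 FPKM in resistant libraries. The values within each group were close together and the mean was 9.97-fold lower in the resistant cells (log2 fold change −3.25, standard error 0.13, limma adjusted p = 1.48e-05). The gene is on chromosome 6 (160348378 to 160452577). SLC22A2 (OCT2), known from the kidney, was listed at 0 in 5 libraries and at 0.311 FPKM in resistant replicate 0.

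SLC22A16, a carnitine carrier known from testis and also for the uptake of doxorubicin, had 0.136, 0 and 0.148 FPKM in parental and 0.438, 1.62 and 1.47 FPKM in resistant libraries (log2 fold change 2.65, standard error 0.64, limma adjusted p = 0.0157). Its call was lost without resistant replicate 1 or 2, with limma adjusted p values of 0.0591 and 0.0628. SLC22A16 passed the filter through the resistant libraries alone, which set the direction of the call. The overlapping RN7SL617P had means of 0.863 and 0.388 FPKM and no call. SLC22A5 (OCTN2), the sodium-coupled carnitine carrier of most tissues, had 8.89, 6.04 and 8.26 FPKM and 5.51, 7.42 and 8.01 FPKM, and its log2 difference of −0.14 had a 95% interval from −0.66 to 0.38. Its neighbour SLC22A4 (OCTN1), the ergothioneine carrier, stayed between 0.0330 and 0.511 FPKM with overlapping groups. SLC22A15 was listed at 0.221 to 0.276 FPKM in parental and 0.365 to 0.694 FPKM in resistant libraries, which did not overlap but did not pass the threshold (limma adjusted p = 0.119, or 0.0450 without resistant replicate 0).

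Of the 11 organic anion carriers of the SLC22 family, 3 reached the filter, all with means below 1 FPKM, of which 2 fell. The kidney carriers SLC22A6 (OAT1) and SLC22A8 (OAT3), the urate carrier SLC22A12 and the liver carriers SLC22A7 and SLC22A9 were listed at 0 in all libraries, as were SLC22A24 and SLC22A25, and SLC22A11 was below the filter. SLC22A10 had 0.411, 0.709 and 0.972 FPKM in parental and 0.0322, 0 and 0.196 FPKM in resistant libraries (limma adjusted p = 0.0185). SLC22A13, a urate and nicotinate carrier, had 0.388, 0.563 and 0.349 FPKM and then 0.0273, 0 and 0.139 FPKM (limma adjusted p = 0.0237). SLC22A14, its neighbour on chromosome 3, which is counted with the SLC22 members of other or unknown substrates, fell as well, with 0.243, 0.258 and 0.453 FPKM in parental cells against 0.0964, 0 and 0 FPKM in resistant cells (limma adjusted p = 0.0331). The calls of these 3 genes were lost without at least 1 of the libraries, with limma adjusted p values up to 0.0622. All 3 passed the filter through the parental libraries alone, which set the direction of their calls. SLC22A20 had 0.140 to 0.187 FPKM in parental and 0.205 to 0.512 FPKM in resistant libraries, without overlap, and did not pass the threshold (limma adjusted p = 0.369).

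Of the 5 other SLC22 members, 1 rose and 3 fell, and those besides SLC22A14 were expressed at higher levels. SLC22A31, a member with no known substrate on chromosome 16 (89195761 to 89201651), had 13.8, 16.2 and 8.96 FPKM in parental and 0.516, 0.138 and 1.18 FPKM in resistant libraries. Its mean was 21.2-fold lower in the resistant cells. The log2 difference was −4.47 (standard error 0.62, limma adjusted p = 0.00162), and −3.84 without resistant replicate 1. SLC22A17, the receptor for the iron carrier lipocalin 2, fell from 6.80, 5.79 and 7.89 FPKM to 2.92, 2.36 and 3.22 FPKM (log2 fold change −1.24, standard error 0.20, limma adjusted p = 0.00288). SLC22A23, which is expressed widely and has no settled substrate, rose from 13.004, 16.3 and 15.4 FPKM to 20.5, 22.2 and 21.1 FPKM (log2 fold change 0.51, standard error 0.11, limma adjusted p = 0.0113). The antisense PSMG4 had means of 34.7 and 25.4 FPKM and no call. SLC22A18, an imprinted gene on chromosome 11, had 18.9, 19.9 and 26.05 FPKM and 11.4, 16.2 and 16.2 FPKM. Its groups did not overlap, and its limma adjusted p of 0.0527 became 0.0278 when protein-coding genes alone were fitted.

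In the peptide carrier family SLC15, the decrease lay in SLC15A2 (PEPT2), the high-affinity carrier of di- and tripeptides and of beta-lactam antibiotics. SLC15A2 is on chromosome 3 (121894401 to 121944188) and had 7.15, 8.73 and 6.91 FPKM in parental against 0.453, 0.610 and 0.898 FPKM in resistant libraries. The mean was 11.6-fold lower without overlap (log2 fold change −3.39, standard error 0.28, limma adjusted p = 1.99e-04). SLC15A4, the histidine and peptide carrier of lysosomes, had 12.3, 11.8 and 14.5 FPKM and 13.9, 12.5 and 17.6 FPKM, and its log2 difference of 0.18 had a 95% interval from −0.21 to 0.56. SLC15A1 (PEPT1), the gut member, and SLC15A3 were below the filter, and SLC15A5 was listed at 0.

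The nucleoside carriers rested on the SLC29 family, since none of the concentrative SLC28 carriers reached the filter and SLC28A3 was listed at 0. SLC29A1 (ENT1), the ubiquitous facilitative carrier that also takes up gemcitabine and cytarabine, rose from 31.7, 29.2 and 31.9 FPKM to 53.4, 58.2 and 55.5 FPKM. This is a 1.80-fold higher mean without overlap (log2 fold change 0.85, standard error 0.08, limma adjusted p = 2.95e-04). The gene lies on chromosome 6 (44219553 to 44234142). SLC29A2 (ENT2), which also accepts nucleobases, went the other way, from 28.3, 30.5 and 33.8 FPKM to 22.95, 17.04 and 20.9 FPKM (log2 fold change −0.61, standard error 0.14, limma adjusted p = 0.0117). SLC29A1 and SLC29A2 thus had overlapping levels in parental cells and levels far apart in resistant cells. The antisense RP11-867G23.8 within SLC29A2 fell too, from a mean of 2.98 to 1.38 FPKM (limma adjusted p = 0.0107). SLC29A4, the plasma membrane monoamine transporter, had 2.35, 1.79 and 1.59 FPKM and then 3.26, 3.47 and 4.11 FPKM (log2 fold change 0.90, standard error 0.22, limma adjusted p = 0.0177). Leaving out 1 of 4 libraries ended that call, with limma adjusted p values between 0.0504 and 0.0658, and the antisense TNRC18, which overlaps it, rose from a mean of 60.3 to 81.8 FPKM. The lysosomal SLC29A3 had a mean of 3.03 FPKM in parental and 2.98 FPKM in resistant cells, with a 95% interval of the log2 difference from −0.44 to 0.40.

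Among the vitamin carriers, SLC19A1, the reduced folate carrier that also takes up methotrexate, had 39.2, 36.2 and 41.0 FPKM in parental and 19.6, 21.2 and 21.3 FPKM in resistant libraries. The resistant mean was 1.87-fold lower, without overlap (log2 fold change −0.90, standard error 0.09, limma adjusted p = 3.77e-04). The thiamine carrier SLC19A2 had 7.86, 9.98 and 7.81 FPKM and 8.45, 9.78 and 8.82 FPKM, with a 95% interval of the log2 difference from −0.27 to 0.43, and SLC19A3 was at 0 in 5 libraries. SLC23A1, the sodium-coupled ascorbate carrier of gut and kidney, fell from 3.49, 5.11 and 4.62 FPKM to 0.130, 0.173 and 0 FPKM (log2 fold change −4.59, standard error 0.46, limma adjusted p = 4.49e-04). This was the largest decrease of a carrier at a pseudocount of 0.1 FPKM, whereas with 1 FPKM it was −2.29 and that of SLC22A31 was −3.13. The antisense PAIP2, which overlaps SLC23A1, had means of 79.5 and 63.5 FPKM and no call. SLC23A2, the ascorbate carrier of most other tissues, had 6.89, 6.92 and 9.67 FPKM and 8.17, 5.88 and 6.15 FPKM, and lay above SLC23A1 in every library of both groups. Its log2 difference of −0.21 had a 95% interval from −0.70 to 0.28. SLC23A3, which has no known ascorbate transport, ranged from 0.209 to 2.28 FPKM with overlapping groups.

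In the SLC10 family, the bile acid carriers of liver and gut, SLC10A1 (NTCP) and SLC10A2 (ASBT), and the steroid sulfate carrier SLC10A6 were below the filter, with no value above 0.0929 FPKM. The members that were expressed are not known as bile acid carriers. SLC10A7, which bears on calcium handling and glycosylation, fell from 27.9, 35.4 and 35.0 FPKM to 14.1, 15.3 and 15.8 FPKM (log2 fold change −1.11, standard error 0.12, limma adjusted p = 6.34e-04). SLC10A3 on the X chromosome fell from 14.05, 14.15 and 13.8 FPKM to 9.50, 8.90 and 7.87 FPKM (log2 fold change −0.68, standard error 0.11, limma adjusted p = 0.00349). Neither gene had overlapping groups. SLC10A5 had 1.26, 1.69 and 2.67 FPKM and 2.69, 2.74 and 2.48 FPKM, and its log2 difference of 0.53 had a 95% interval from −0.19 to 1.25. SLC10A4, known from synaptic vesicles, had no value above 0.232 FPKM, and its limma adjusted p of 0.141 became 0.00879 without parental replicate 1.

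Genes that work beside these carriers were looked up in 5 lists of 75 genes, of which 61 were tested, with 22 called higher and 19 called lower, beside the 44.4% of all genes and 55.7% of protein-coding genes called in either direction. Of 11 tested ABC pumps, which send drugs, bile acids and conjugates out of the cell with ATP, 3 rose and 4 fell. Without parental replicate 0 or 1 or resistant replicate 0 or 2, 1 pump was called higher in place of 3, and without resistant replicate 1, 2 were called lower in place of 4. ABCC4 (MRP4), a pump of cyclic nucleotides, prostaglandins and steroid sulfates, fell from 91.5, 91.5 and 93.4 FPKM to 2.71, 1.99 and 2.75 FPKM (log2 fold change −5.17, standard error 0.14, limma adjusted p = 4.69e-06). ABCC1 (MRP1) fell from a mean of 88.2 to 16.2 FPKM (log2 fold change −2.44, limma adjusted p = 2.89e-05), and ABCC11 rose from 0.148 to 1.76 FPKM (log2 fold change 2.998, limma adjusted p = 0.00277). ABCB1, the multidrug resistance pump, was below the filter.

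Of 10 tested scaffolds and nuclear factors of drug transport, 4 rose and 4 fell. The liver factor HNF4A and the bile acid receptor NR1H4, chosen after their values were seen, were listed at 0 in parental cells, and in resistant cells had 0.348, 0.439 and 0.686 FPKM and 3.42, 1.65 and 1.77 FPKM. Both passed the filter through the resistant libraries alone, which set the direction of their calls. RXRA, the partner of many nuclear receptors, fell from a mean of 40.3 to 8.24 FPKM (log2 fold change −2.28, limma adjusted p = 1.48e-05). SLC9A3R1 (NHERF1), a scaffold that holds carriers at the apical membrane, fell from 94.8 to 9.30 FPKM (log2 fold change −3.32, limma adjusted p = 2.90e-05).

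In nucleoside salvage, 5 of 14 tested enzymes rose and 4 fell. ADA, which deaminates adenosine, fell from a mean of 8.33 to 2.36 FPKM (limma adjusted p = 4.66e-04), and ADK, which phosphorylates it, fell from 54.2 to 29.6 FPKM (limma adjusted p = 0.00104). DGUOK, the mitochondrial deoxyguanosine kinase, rose from 34.1 to 62.2 FPKM (limma adjusted p = 9.24e-04). In folate, thiamine and ascorbate handling, 3 of 12 rose and 4 fell, the latter 2 without parental replicate 2 or resistant replicate 0 or 1. FPGS, which adds glutamates to folate and keeps it in the cell, fell from 71.5 to 31.1 FPKM (limma adjusted p = 1.14e-04), and the proton-coupled folate carrier SLC46A1 fell from 30.4 to 17.8 FPKM (limma adjusted p = 0.00118). GSTO2, which reduces dehydroascorbate, rose from 1.12 to 42.8 FPKM (limma adjusted p = 3.25e-05).

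In steroid and carnitine conjugation, 7 of 14 tested genes rose and 3 fell. Those that fell were the steroid sulfatase STS (means of 2.73 and 0.742 FPKM) and the sulfotransferases SULT2B1 (3.16 and 1.30 FPKM) and SULT1A1 (7.85 and 4.84 FPKM). Among the genes that rose were CROT, SLC25A20, CPT1B and CPT1C of the carnitine part. TMLHE, the first enzyme of carnitine synthesis, had 7.56, 8.66 and 9.61 FPKM in resistant cells and was listed at 0 in every parental library (limma adjusted p = 2.07e-05). TMLHE passed the filter through the resistant libraries alone, which set the direction of its call, so this p value is descriptive. CRAT, the carnitine acetyltransferase, rose from a mean of 5.31 to 30.5 FPKM (log2 fold change 2.52, limma adjusted p = 1.44e-04), and PAPSS1, which makes the sulfate donor, rose from 33.4 to 126 FPKM (log2 fold change 1.92, limma adjusted p = 9.82e-05). The carnitine carrier SLC22A5 showed no such difference.

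**Figure D3:**
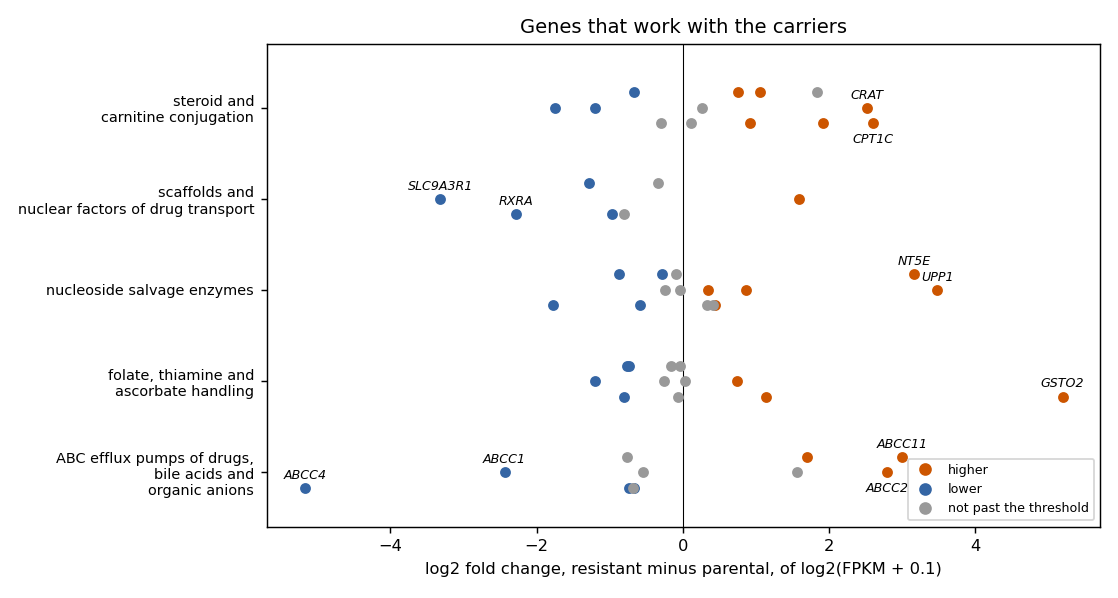
Log2 fold change of log2(FPKM + 0.1), resistant minus parental, of the tested genes in 5 lists that work beside the carriers, 1 point a gene, orange where called higher, blue where called lower and grey otherwise. Each list has points on both sides of 0, with ABCC4 at −5.17 and GSTO2 at 5.19 at the ends. Genes listed at 0 in all libraries of a group are left out.

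The surroundings of the called carriers were described by protein-coding genes that averaged 1 FPKM or more over the 6 libraries and start within 500 kb. SLC47A1 had 7 such neighbours, of which ALDH3A2, a fatty aldehyde dehydrogenase, alone was called higher, with a mean of 69.8 FPKM in parental and 812 FPKM in resistant cells (log2 fold change 3.54, standard error 0.06, limma adjusted p = 1.10e-06). ALDH3A2 lies between SLC47A1 and SLC47A2 and overlaps the latter, and 3 of the other neighbours, FAM83G, EPN2 and AKAP10, were lower. Around SLC15A2, 7 of 8 neighbours were called lower, among them EAF2 (18.7 to 0.943 FPKM), CSTA (27.7 to 1.47 FPKM) and FAM162A (247 to 68.2 FPKM). Around SLC19A1, COL6A1 (29.1 to 1.78 FPKM), PCBP3 (2.45 to 0.196 FPKM) and COL18A1, which overlaps SLC19A1 on the other strand (4.44 to 0.745 FPKM), 3 of 5 neighbours, were lower and none was higher. Around SLC22A23, 5 of 9 were higher and none was lower, with TUBB2B at means of 0.00942 FPKM in parental and 12.9 FPKM in resistant cells. TUBB2B passed the filter through the resistant libraries alone, which set the direction of its call. SLCO4A1 lay among 3 higher, 6 lower and 7 genes without a call. Called neighbours of the lower carriers SLC22A17 (9 higher, 5 lower), SLC29A2 (9 and 9), SLC22A31 (5 and 5) and SLC10A3 (6 and 7) went both ways. So did those of SLC29A1 (1 and 2), which was itself higher. Those of SLC23A1 (0 higher, 4 lower), SLC29A4 (5 and 1) and SLC22A16 (3 and 0) went mainly or only with the carrier. The count for SLC23A1 holds a minor entry of MATR3 that was lower (means of 25.7 and 11.4 FPKM). The main entry of MATR3 (200 and 223 FPKM) had no call. These counts stand beside the 53.5% of all genes at 1 FPKM or more in either group that were called in either direction. That share covers genes of every type, whereas the neighbours are protein-coding and averaged 1 FPKM over all 6 libraries. The share of such genes, and its split by direction, was not worked out.

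**Figure D4:**
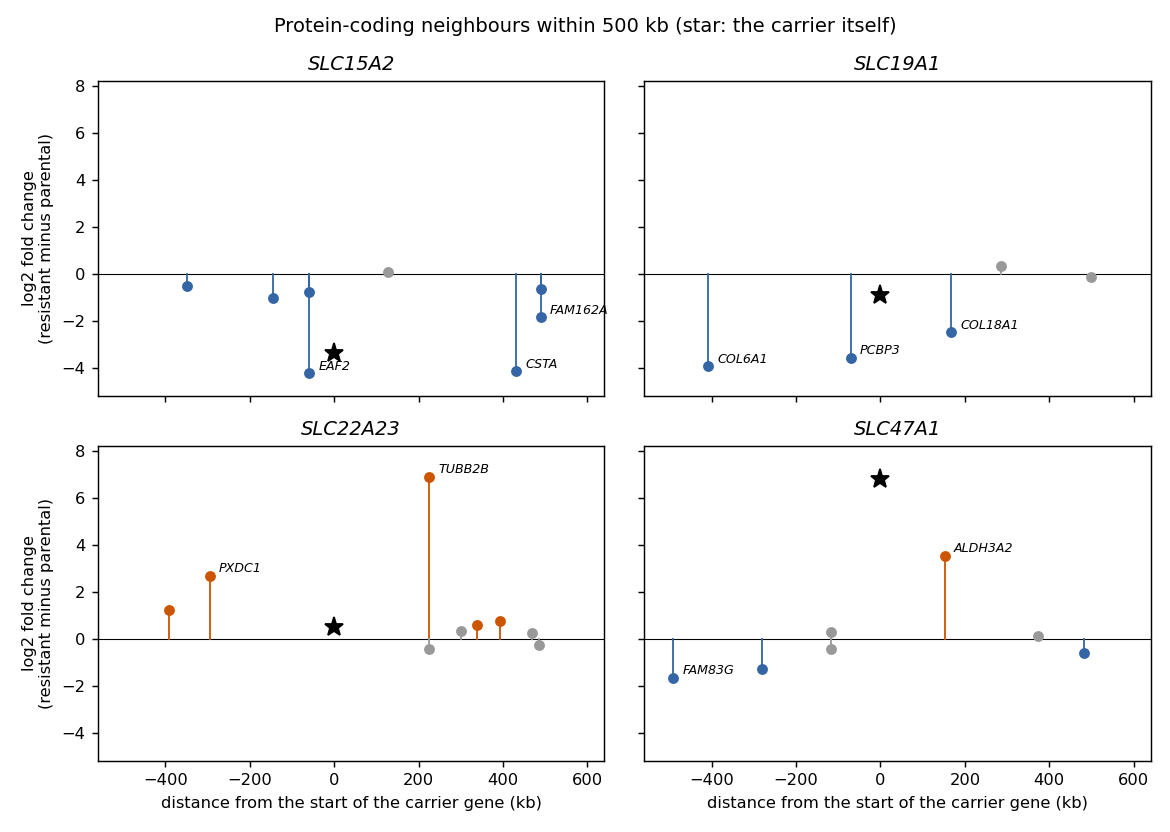
Log2 fold change of log2(FPKM + 0.1), resistant minus parental, of protein-coding neighbours at a mean of 1 FPKM or more, by distance in kb from the start of 4 carriers along their direction of transcription. Stars mark the carrier, orange and blue points neighbours called higher or lower, grey points those without a call. The 4 carriers are a selection, and around others, such as SLC22A17 and SLC29A2, called neighbours lay on both sides of 0. The neighbours of SLC15A2 and SLC19A1 that were called lie below 0 and those of SLC22A23 above 0, while SLC47A1 at 6.81 and ALDH3A2 at 3.54 stand out among neighbours that are lower or without a call.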

How the data were processed

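RNA-Seq was compared between 3 libraries of C4-2B parental and 3 of C4-2B enzalutamide resistant cells, grouped by the phenotype label. The authors trimmed 50 bp single-end reads with TrimGalore 0.4.3, aligned them to GRCh38 with STAR 2.5.3 and estimated the deposited FPKM values with Cufflinks 2.2.1 on GENCODE v25. The submitters' processing notes name mm10, Trimmomatic 0.27 and FastQC 0.10.1 instead, whereas the table holds human gene identifiers. The table names no unit, and how libraries were scaled to each other is not stated. FPKM values can list a gene at 0 where an estimate failed. A pseudocount of 0.1 FPKM was added, and log2 values of genes at 0.1 FPKM or more on average were fitted with limma 3.58.1 (lmFit and eBayes with trend) in R 4.3.3. A fold change on this scale understates changes of low genes. P values are two-sided and Benjamini-Hochberg adjusted over all genes tested. The fit was tested on simulated data.

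Positions came from GENCODE v44 (GRCh38), which matched all 62 carriers, and figures from matplotlib 3.10.9. Alternatives covered the pseudocount, filter, scaling, variance trend, replicate block, omitted libraries and thresholds. All carriers called at 1 FPKM or more in a group are described per library, and others by values or range. From each list of related genes up to 3 called genes with the smallest adjusted p are named. HNF4A, NR1H4 and the remaining called genes of steroid and carnitine conjugation were added after their values were seen. The carriers and the lists were chosen with earlier results of these data known. The values of 1 carrier and 1 related gene are not reported here, although the counts include them.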

Additional observations from a re-analysis of the deposited data

How the results depend on the processing

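Of the 25 carriers called, 18 kept their call under each alternative that refitted them (15 alternatives, or 14 for SLCO1A2 and SLCO2B1, which fall below the filter at 1 FPKM), and 7 lost it under at least 1: SLC22A10, SLC22A13, SLC22A14, SLC22A16, SLC29A4, SLCO1B1 and SLCO6A1. The count of carriers higher in resistant cells fell from 10 to 5 with a filter at a mean of 1 FPKM, which tests fewer genes, and to 5 at an adjusted p below 0.01. With each library left out, 7 to 10 carriers were higher and 13 to 15 lower. The median log2 fold change of the tested carriers moved from −0.08 to −0.59 among those with a mean of at least 1 FPKM and ranged from −0.18 to 0.0088 with libraries left out, while the median over all genes tested stayed between −0.09 and 0.05 under each alternative. Related genes lower in resistant cells fell from 19 to 9 when at least a 2-fold change was required. The direction turned for SLC29A3, to 0.055 with upper-quartile scaling, 0.022 with protein-coding genes alone and a range of −0.079 to 0.064 with libraries left out, and for SLC22A5, with a range of −0.31 to 0.015. Neither was called under any alternative. Same-numbered libraries did not deviate together (Pearson r across genes of 0.00802, 0.0165 and −0.00301), so the replicate numbers were taken as names. With the replicate number as a block, 8 carriers were higher and 14 lower, 20 related genes higher and 15 lower. The table gives no counts, and values below about 0.1 FPKM rest on few reads.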
